A study of Mus musculus with 8 samples.

Results

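The keratins are the epithelial intermediate filament proteins, and 52 keratin genes were among the 19938 genes measured in whole mouse uterus. They were taken by name, as every gene whose symbol is Krt followed by a number, with the keratin-associated proteins of hair left out. By the epithelium in which each is best known, 5 were placed as simple, 20 as stratified and 22 as hair keratins, and 5 were left unplaced. Krt81, Krt83 and Krt85, hair keratins by the same scheme, were not analysed here. Each uterus was from a separate mouse and had an array to itself, with 4 control and 4 Foxa2-deleted females. Controls were Pgr+/+ Foxa2+/+, and deleted animals were PgrCre/+ Foxa2flox/flox, meaning that both Foxa2 alleles were floxed and that Cre was expressed from the progesterone receptor locus, in the cells that use it. Controls carried neither Cre nor floxed alleles, so loss of Foxa2 and the altered Pgr allele cannot be told apart. All females had been bred to vasectomised wild type males and were taken on day 3.5 of pseudopregnancy, with the plug on day 0.5. No age is stated in the labels. The comparison asks how the keratins of the 3 classes differ between the genotypes.

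Keratin filaments are built from obligate pairs of a type I and a type II chain. Krt8 and Krt18 are the founding pair of single-layered epithelia, joined by Krt19 and Krt7 in ducts and glands, and such epithelium lines the lumen and the glands of the uterus. Stratified epithelia such as epidermis and vagina use Krt5 with Krt14 in their basal layer and other pairs, such as Krt1 with Krt10 or Krt4 with Krt13, above it. Hair keratins form the hair shaft and the root sheath around it.

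The values are log2 intensities, in which a difference of 1 is a doubling, and a change is the deleted mean minus the control mean. Rose, fell and called refer to an adjusted p under 0.05 in limma, after Benjamini-Hochberg adjustment over the 19938 genes. Array medians ran from 8.25 to 8.32. Foxa2 was at 8.61 to 8.82 on the control arrays and at 8.20 to 8.22 on the deleted arrays (log2 change -0.52, SE 0.05, adjusted p = 0.0013), so no array went against its label. The sources used here do not say whether its probe set lies in the deleted part. Over all genes 11.1% were called, 4.5% higher and 6.58% lower in deleted uteri. Unadjusted p values under 0.05 in limma were far more common, with 2888 of the 19938 genes higher and 3384 lower. Counts at an unadjusted p below are to be read beside these.

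Of the 52 keratins, 8 rose, 1 fell and 43 were not called, so 17.3% were called beside the 11.1% of all genes. Of the simple keratins 3 of 5 rose and of the stratified keratins 5 of 20 rose. Of the hair keratins 0 of 22 were called. At an unadjusted p under 0.05 in limma, 7 of the 22 were higher and none lower, beside 2888 higher and 3384 lower of all 19938 genes. The gene that fell was Krt23, which was unplaced. The median change was 0.93 for simple, 0.17 for stratified and 0.11 for hair keratins, beside 0.0075 over all genes. Each of the 3 simple keratins that rose did so by more than 1.5-fold, and none of the 5 stratified keratins that rose reached 1.5-fold. The number of keratins that rose was 3 to 5 without any 1 control or deleted replicate 1, and 14 without deleted replicate 4, of which 8 were stratified and 3 hair keratins. In whole tissue, fewer or more cells of a type cannot be told apart from less or more RNA per cell.

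**Figure D1:**
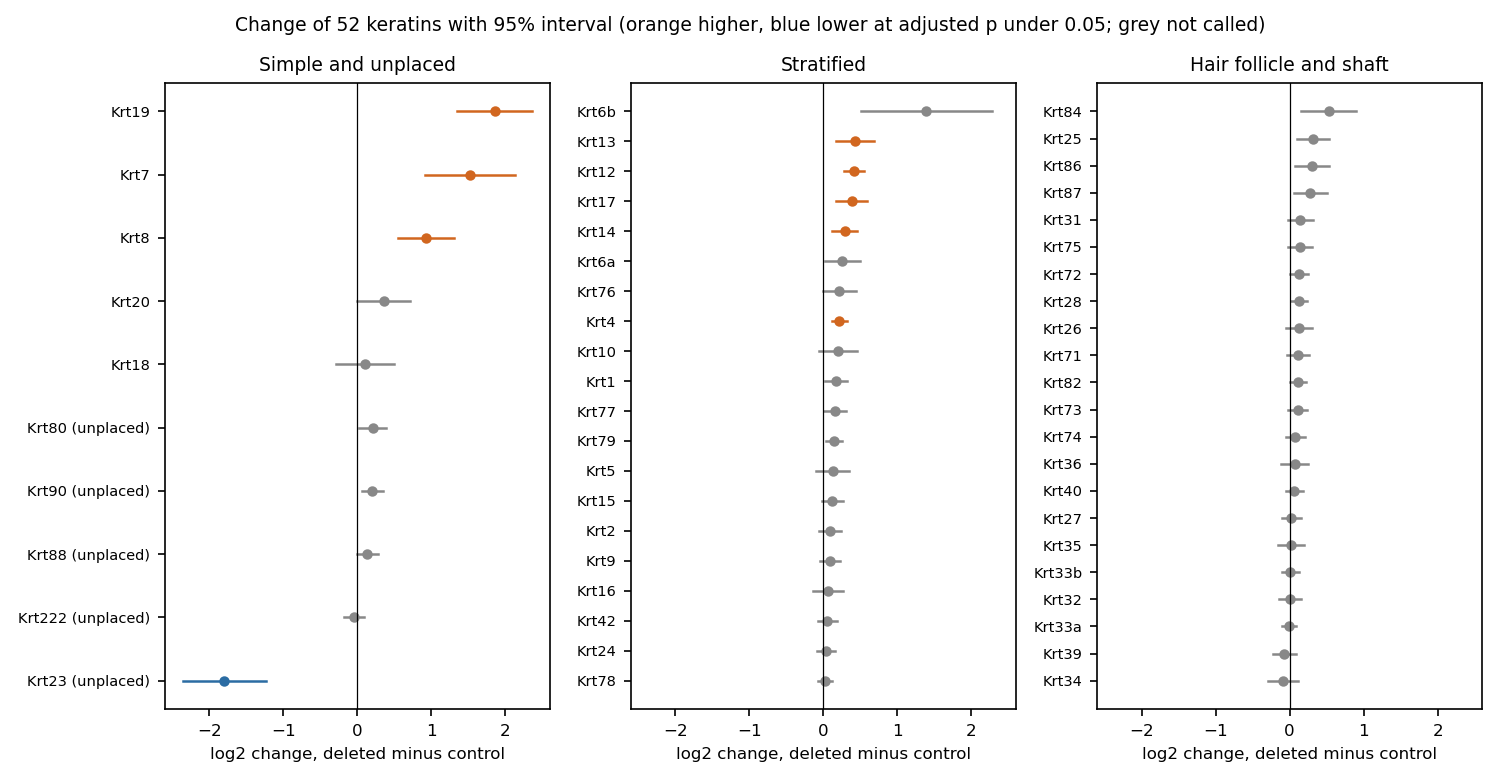
Log2 change (deleted minus control, x axis) of the 52 keratins with the 95% interval of the limma fit, in 3 panels by class, with the unplaced keratins marked in the first. Krt19, Krt7 and Krt8 lie farthest to the right among called genes (1.86, 1.53 and 0.93), Krt23 stands alone on the left (-1.80), and the hair keratins lie between -0.09 and 0.53 with none called.

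Krt19, a type I keratin with almost no tail domain, had the largest rise in the family. It read 9.89, 9.96, 10.08 and 9.34 on control replicates 1 to 4 and 11.61, 11.22, 12.25 and 11.63 on deleted replicates 1 to 4. No deleted uterus came within 1 log2 unit of a control. Krt19 rose by 1.86 (SE 0.22, adjusted p = 0.0034), or 3.63-fold, going from 9.82 ± 0.33 to 11.68 ± 0.43 (SD, n = 4 each). Krt7, the type II keratin of ducts and glands, read 9.29, 9.51, 9.57 and 9.67 in controls and 11.15, 10.34, 11.83 and 10.82 in deleted uteri. The groups were again apart, with the deleted animals spread over 1.49 log2 units. Krt7 rose by 1.53 (SE 0.27, adjusted p = 0.0139), or 2.88-fold. Krt8, the type II chain of the founding pair, read 11.53, 11.60, 11.58 and 11.42 in controls and 12.32, 12.09, 13 and 12.43 in deleted uteri. Its groups did not overlap, and it rose by 0.93 (SE 0.17, adjusted p = 0.0148), or 1.90-fold. Without control replicate 4 the adjusted p of Krt8 was 0.0522. The calls of Krt19 and Krt7 held with each array left out in turn.

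Krt18, the usual partner of Krt8, was not called. It read 10.57, 10.72, 10.80 and 10.80 in controls and 10.54, 10.44, 11.16 and 11.18 in deleted uteri. Deleted replicates 1 and 2 lay below every control and replicates 3 and 4 above every control. Its change of 0.11 had a 95% interval from -0.28 to 0.50 (SE 0.17, adjusted p = 0.693). Krt20, known from intestine and bladder, read 7.21, 6.95, 6.77 and 6.98 in controls and 7.49, 7.08, 7.73 and 7.06 in deleted uteri. The groups overlapped, and its change of 0.36 was not called (SE 0.16, adjusted p = 0.155).

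Krt23, a type I keratin described in several glandular epithelia, moved the other way. It read 8.59, 8.95, 8.71 and 9.83 in controls and 6.97, 7.41, 7.16 and 7.35 in deleted uteri. Every deleted uterus lay below every control, and control replicate 4, the lowest control for Krt19, was the highest for Krt23. Krt23 fell by 1.80 (SE 0.25, adjusted p = 0.0058), or 3.48-fold, and the call held with each array left out in turn. If Krt23 were counted as simple, that class would hold 3 that rose and 1 that fell among 6, with a median change of 0.65. The other unplaced keratins, Krt80, Krt88, Krt90 and Krt222, had changes from -0.05 to 0.21, none of them called.

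**Figure D2:**
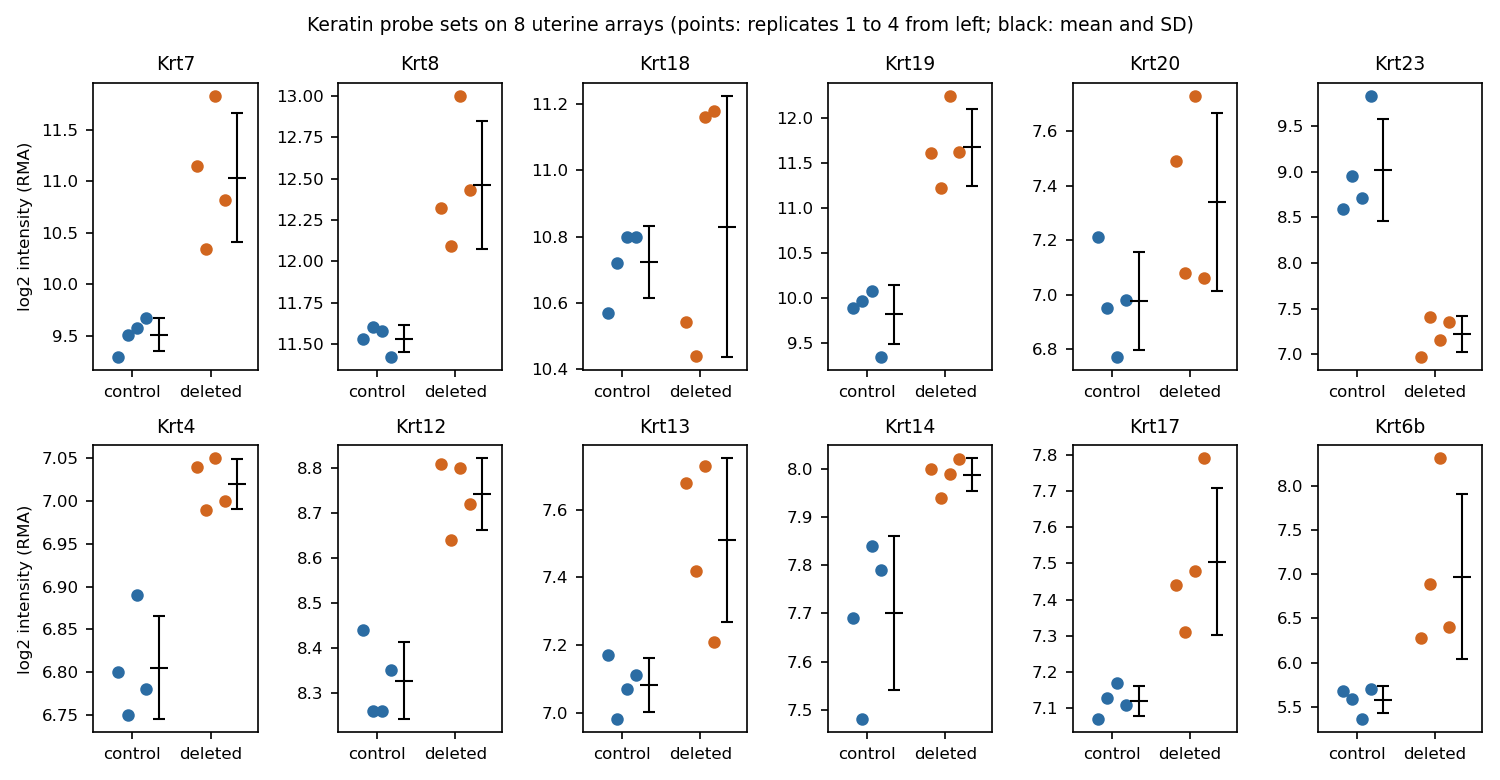
Log2 intensity (y axis, with its own range in each panel) of 12 keratins on the 4 control and 4 deleted arrays, replicates 1 to 4 from left to right, with mean and SD in black. In 10 of the 12 panels the groups do not overlap, Krt23 is the only keratin of the 12 that is lower in deleted uteri, and Krt18 and Krt20 overlap.

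The start regions of 4 of these genes are shown to compare the neighbours Krt8 and Krt18, of which 1 rose and 1 was not called, with Krt7, which rose, and Krt23, which fell. Each runs 5′ to 3′ along its gene from 250 bases before to 50 bases after the start annotated by RefSeq on GRCm38.p6. They lie at chr15:101412153-101412452 on the plus strand for Krt7, chr15:102004293-102004592 on the minus strand for Krt8, chr15:102027966-102028265 on the plus strand for Krt18 and chr11:99493071-99493370 on the minus strand for Krt23. Capitals mark TATAAA, the core of the TATA box, and GGGCGG, the GC box bound by Sp1 family factors, on either strand.
Krt7: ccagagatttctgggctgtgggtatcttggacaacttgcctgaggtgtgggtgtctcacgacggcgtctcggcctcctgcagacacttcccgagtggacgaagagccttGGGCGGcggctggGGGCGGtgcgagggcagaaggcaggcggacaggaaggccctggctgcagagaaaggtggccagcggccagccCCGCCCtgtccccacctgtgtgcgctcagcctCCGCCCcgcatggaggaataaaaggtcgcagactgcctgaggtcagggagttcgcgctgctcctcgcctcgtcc
Krt8: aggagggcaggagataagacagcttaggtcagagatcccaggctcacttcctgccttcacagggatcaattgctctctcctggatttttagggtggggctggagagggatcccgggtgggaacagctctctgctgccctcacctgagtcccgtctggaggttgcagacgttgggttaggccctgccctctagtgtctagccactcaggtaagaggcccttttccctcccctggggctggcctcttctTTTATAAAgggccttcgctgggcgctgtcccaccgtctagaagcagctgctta
Krt18: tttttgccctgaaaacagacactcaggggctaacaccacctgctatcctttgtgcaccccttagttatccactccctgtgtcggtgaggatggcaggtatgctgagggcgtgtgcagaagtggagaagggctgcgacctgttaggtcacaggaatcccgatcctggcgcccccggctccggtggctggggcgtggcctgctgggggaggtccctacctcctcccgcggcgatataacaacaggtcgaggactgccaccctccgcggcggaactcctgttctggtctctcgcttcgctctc
Krt23: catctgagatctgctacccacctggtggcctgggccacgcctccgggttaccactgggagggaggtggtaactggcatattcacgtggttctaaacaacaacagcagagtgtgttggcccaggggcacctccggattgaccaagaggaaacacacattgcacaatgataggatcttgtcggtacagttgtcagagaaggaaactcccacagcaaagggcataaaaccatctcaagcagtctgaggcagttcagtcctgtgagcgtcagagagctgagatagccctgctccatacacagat
Krt7 held 4 GC boxes and no TATAAA, Krt8 held TATAAA in 2 overlapping matches on opposite strands at its annotated start, and Krt18 and Krt23 held neither. Windows of 36 of the 52 keratins were in the RefSeq table. Krt19, which had the largest rise, was among the 16 without a window, so its start region was not searched. TATAAA was found in 19 of the 36, namely 2 of 4 simple, 4 of 13 stratified and 13 of 17 hair keratins, beside 13.6% of all 32851 windows. GGGCGG was found in 2 of the 36, Krt7 and Krt75, beside 35.7% of all windows. On either strand, the forkhead sequence TGTTTAC was in none of the 36 (3.65% of all). The estrogen response element, GGTCA and TGACC 3 bases apart (0.070% of all), was also in none. Nor was the progesterone response element, AGAACA and TGTTCT 3 bases apart (0.0091% of all), in any. These sequences are rare over all windows, so their absence from 36 says little. The AP-1 site TGANTCA was in Krt13 alone (7.81% of all).

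All 20 stratified keratins had a change above 0, from 0.03 to 1.39, and 5 of them rose. Under cyclic loess, and without deleted replicate 3, 19 of the 20 were above 0. Krt12, the keratin of corneal epithelium, read 8.44, 8.26, 8.26 and 8.35 in controls and 8.81, 8.64, 8.80 and 8.72 in deleted uteri. The groups were apart on all 8 arrays, with a log2 change of 0.42 (SE 0.06, adjusted p = 0.0073) that was called with each array left out. Krt13, a suprabasal keratin of wet stratified epithelium, read 7.17, 6.98, 7.07 and 7.11 against 7.68, 7.42, 7.73 and 7.21, a rise of 0.43 (SE 0.11, adjusted p = 0.0427). Its partner Krt4 read 6.80, 6.75, 6.89 and 6.78 against 7.04, 6.99, 7.05 and 7.0, a rise of 0.22 (SE 0.05, adjusted p = 0.0238). In Krt13 deleted replicate 4 came nearest the controls, while the 4 deleted values of Krt4 lay within 0.06 of each other.

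Krt17, an early keratin of wounded and appendage epithelium, read 7.07, 7.13, 7.17 and 7.11 against 7.44, 7.31, 7.48 and 7.79, a rise of 0.39 (SE 0.09, adjusted p = 0.0343). Krt14, the basal type I keratin, read 7.69, 7.48, 7.84 and 7.79 against 8.0, 7.94, 7.99 and 8.02, a rise of 0.29 (SE 0.08, adjusted p = 0.0455). The groups did not overlap for either gene, though the lowest deleted value of Krt14 was 0.10 above the highest control. Unlike that of Krt12, these calls depended on the arrays included. That of Krt14 was lost on leaving out any 1 array (adjusted p up to 0.0943), and those of Krt13 and Krt17 on leaving out any 1 control or deleted replicate 1 or 3 (up to 0.118 and 0.0954). That of Krt4 was lost without control replicate 1, 2 or 4 or deleted replicate 1 (up to 0.0781).

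Krt6b, a type II keratin of activated epithelium, had a larger change than any stratified keratin that was called. It read 5.68, 5.59, 5.36 and 5.70 in controls and 6.28, 6.89, 8.31 and 6.40 in deleted uteri. No deleted uterus reached down to the controls, but deleted replicate 3 stood 1.42 above the next. Its log2 change of 1.39 was not called (SE 0.39, adjusted p = 0.0536), and it was called without deleted replicate 3 or replicate 4 (adjusted p of 0.0089 and 0.041). Krt6a had a change of 0.26 (SE 0.11, adjusted p = 0.134) and their partner Krt16 one of 0.06 (SE 0.09, adjusted p = 0.665). Neither was called on all 8 arrays, and Krt6a was called without deleted replicate 4 (adjusted p = 0.036). Krt6a and Krt6b are near-identical copies, as in part are Krt14, Krt16 and Krt17, and the sources used here do not give the probe sequences, so the division of signal among them is uncertain.

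The defining pairs of the basal and cornified layers were otherwise not called. Krt5, the partner of Krt14, had a change of 0.13 (SE 0.10, adjusted p = 0.397), and Krt15, another basal keratin, one of 0.12 (SE 0.06, adjusted p = 0.22). The epidermal pair Krt1 and Krt10 had changes of 0.17 (SE 0.07, adjusted p = 0.116) and 0.20 (SE 0.11, adjusted p = 0.255). Krt1 was called without deleted replicate 4 (adjusted p = 0.0424).

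Among the hair keratins 19 of 22 had a change above 0, and 18 to 20 did under the other scalings. With an array left out 15 to 19 did, the fewest without control replicate 4. The 9 keratins of the root sheath and companion layer ran from 0.03 to 0.32 and the 13 of the hair shaft from -0.09 to 0.53. Krt84, also known from the tongue, had the largest change of the class and read 6.97, 6.86, 6.72 and 6.82 in controls and 7.56, 7.16, 7.80 and 6.97 in deleted uteri. Deleted replicate 4 equalled the highest control, and the change of 0.53 was not called (SE 0.16, adjusted p = 0.0699; 0.0249 without that array). Krt25, an inner root sheath keratin, had a change of 0.32 with its groups apart (SE 0.10, adjusted p = 0.065; 0.0352 without deleted replicate 2). At the other end Krt34 and Krt39 had changes of -0.09 (adjusted p = 0.52) and -0.07 (adjusted p = 0.492). No test of the difference between the hair and stratified classes was made.

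Small positive changes were common among dim genes in these arrays. Of the 52 keratins 46 lay in the lower 50% of genes by mean intensity, all but Krt7, Krt8, Krt18, Krt19, Krt33b and Krt87. Among the 9919 other genes in that range 64.5% had a change above 0, with a median of 0.045 and 8.17% called. Of the 46 dim keratins 41 had a change above 0, with a median of 0.13, and 6 were called. RMA pulls dim probe sets towards a floor, which can understate changes, and the upward drift of dim genes can overstate small rises. Neither effect was tested, so the true size of these changes is uncertain. No detection call was given, so the presence of these genes in the uterus is unknown. The 2 groups did not overlap at all in 14 of the 52 keratins, 13 of them higher in deleted uteri, beside 21.1% of all genes in either direction.

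By chain type, 5 of 28 type I keratins rose and 1 fell, and 3 of 24 type II keratins rose. The shares called were 21.4% of type I and 12.5% of type II, beside 11.1% of all genes. At an unadjusted p under 0.05 in limma, 8 type I keratins were higher and 1 lower, and 15 type II keratins were higher and none lower. Over all 19938 genes 2888 were higher and 3384 lower at that level. The median change was 0.08 for type I and 0.17 for type II. Partners were compared within each array, which sets their changes side by side and not their levels. Krt8 rose more than Krt18 by 0.82, with differences of 0.97, 0.84, 1.03 and 0.44 above the control mean on deleted replicates 1 to 4 and all 4 above every control (two-sided exact permutation test over 70 arrangements, p = 0.029, adjusted p = 0.10). Krt8 rose less than Krt19 by 0.93, with all 4 deleted arrays below every control (exact permutation p = 0.029, adjusted p = 0.10). That p is the smallest which 4 against 4 arrays can give, and neither difference passed after adjustment over the 7 pairs. For Krt7 against Krt19, Krt5 against Krt14, Krt4 against Krt13, Krt6a against Krt16 and Krt1 against Krt10 the changes differed by -0.34 to 0.20, with exact permutation p from 0.143 to 0.971.

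Of 19 epithelial markers without keratins, 5 rose, none fell and 14 were not called, with a median change of 0.35. That is 26.3% called, beside the 11.1% of all genes. At an unadjusted p under 0.05 in limma, 10 were higher and 1 lower. The tight junction genes Cldn3 (-0.47, adjusted p = 0.151) and Cldn4 (-0.11, adjusted p = 0.476), named after their values were seen, were the only 2 with a change below 0. Elf3, an epithelial transcription factor, rose by 1.78 (SE 0.25, adjusted p = 0.0067) and the membrane mucin Muc1 by 1.57 (SE 0.25, adjusted p = 0.0106), and both calls held with each array left out. The membrane protease St14 rose by 1.13, the small GTPase Rab25 by 0.87 and the adhesion molecule Epcam by 0.87, but these calls were lost without control replicate 2, 3 or 4, and those of Rab25 and Epcam also without control replicate 1 or deleted replicate 1 (adjusted p up to 0.0605, 0.077 and 0.0995). The Epcam call was further lost without deleted replicate 4. The mean of the 19 markers lay 0.35, 0.13, 1.06 and 0.54 above the control mean on deleted replicates 1 to 4. It was lowest on deleted replicate 2 and highest on replicate 3, as were Krt19, Krt7 and Krt8. The median change of the simple keratins was also lowest on deleted replicate 2 (0.56). Those of the stratified and hair keratins were lowest on deleted replicate 4 (0.02 and 0.05).

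Each of the 11 simple or called keratins was also read against the mean of these markers on the same array. Krt23 and the 5 stratified keratins entered because they had been called on these same arrays. Their permutation p is therefore not independent of that choice. Krt19 minus the markers was higher by 1.34, at 1.44, 1.27, 1.37 and 1.27 above the control mean on deleted replicates 1 to 4. Krt8 minus the markers was higher by 0.40, at 0.43, 0.42, 0.41 and 0.36, and Krt7 by 1.0, at 1.29, 0.70, 1.26 and 0.77. Over the deleted arrays the SD relative to the markers was smaller than that of the plain log2 value in all 5 simple keratins, as in Krt19 (0.08 against 0.43) and Krt8 (0.03 against 0.39). It was larger in Krt23 (0.49 against 0.20) and in the 5 stratified keratins that rose, as in Krt4 (0.38 against 0.03) and Krt12 (0.35 against 0.08). The marker mean itself had an SD of 0.40 over the deleted arrays. For keratins that varied as little as Krt4 and Krt12, subtracting it had to raise the SD. These SDs do not test whether a keratin followed the markers. Krt18 minus the markers was lower by 0.42, at -0.54, -0.42, -0.63 and -0.08, and Krt23 minus the markers by 2.32. In each of these 5 all 4 deleted arrays lay on one side of every control (exact permutation p = 0.029, the smallest possible), and none passed after adjustment over the 11 (adjusted p = 0.063). The 5 stratified keratins that rose and Krt20 changed by -0.31 to -0.10 relative to the markers, with exact permutation p from 0.171 to 0.886. The part of the epithelial markers in the keratin changes was not tested.

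**Figure D3:**
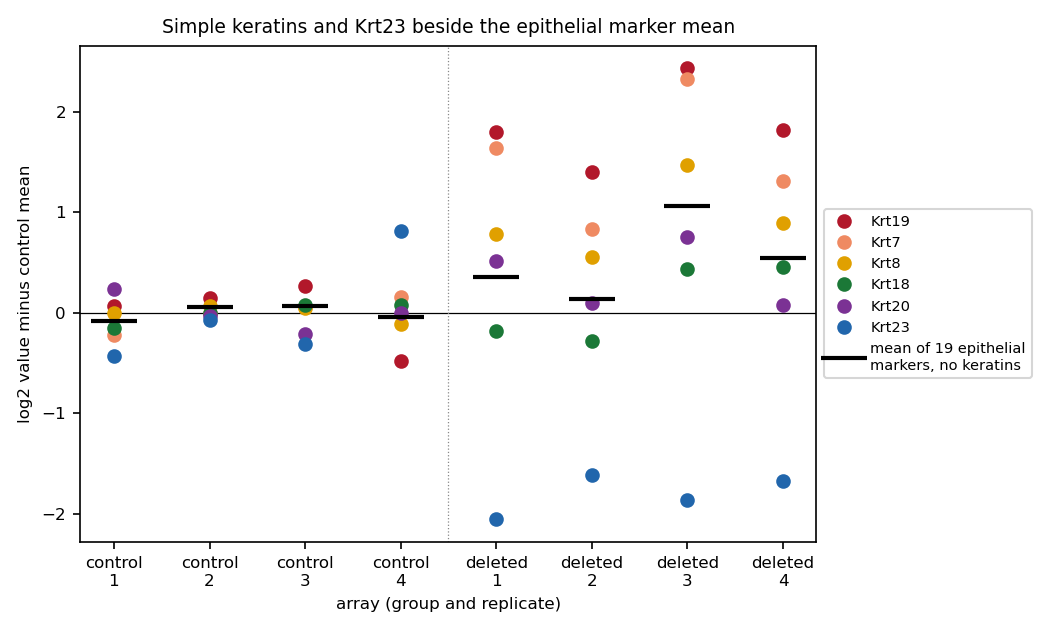
Value minus its control mean (y axis, log2) of the 5 simple keratins and Krt23 on each of the 8 arrays (x axis, group and replicate). Black dashes give the mean of 19 non-keratin epithelial markers minus its control mean on the same arrays. On the 4 deleted arrays the marker mean runs from 0.13 to 1.06, with Krt19 and Krt7 above it, Krt18 below it and Krt23 far below 0.

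Keratin filaments are anchored at desmosomes and hemidesmosomes by linker proteins. Of 18 genes for such linkers, other desmosome proteins and proteins that bundle or organise keratin, 4 rose and none fell. That is 22.2% called, beside the 11.1% of all genes. At an unadjusted p under 0.05 in limma, 10 were higher and none lower, and the median change was 0.17. Jup, plakoglobin, rose by 0.65 (SE 0.11, adjusted p = 0.0122) with each array left out too. Dsp, desmoplakin, which ties keratin to the desmosome, rose by 0.99 (SE 0.24, adjusted p = 0.034), the desmosomal armadillo protein Pkp2 by 0.87 (SE 0.20, adjusted p = 0.03) and the keratin-binding plakin Eppk1 by 0.29 (SE 0.07, adjusted p = 0.037). Those of Dsp, Pkp2 and Eppk1 were lost without any 1 control or deleted replicate 1, that of Dsp also without deleted replicate 4 and that of Eppk1 without replicate 3 (adjusted p up to 0.0956, 0.0837 and 0.107). Among 16 other intermediate filament genes 2 rose and none fell, so 12.5% were called beside the 11.1% of all genes. At an unadjusted p under 0.05 in limma, 3 of them were higher and 4 lower. The 2 that rose were the desmin-binding Sync by 0.66 and the neurofilament light chain Nefl by 0.25. Both calls were lost without control replicate 2, 3 or 4 or deleted replicate 1 (adjusted p up to 0.0716 and 0.0774). The mesenchymal Vim had a change of -0.16 (adjusted p = 0.138) and the muscle Des one of 0.22 (adjusted p = 0.275).

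Squamous markers other than keratins gave 2 higher and none lower of 15, with a median change of 0.10. That is 13.3% called, beside the 11.1% of all genes. Of the 15, 12 had a change above 0, and 13 lay in the lower 50% of genes by mean intensity. In that range 64.5% of the genes other than keratins had a change above 0. Sprr1a, a cornified envelope precursor, rose by 2.43 (SE 0.32, adjusted p = 0.0047), and Ivl, involucrin, by 0.25 (SE 0.06, adjusted p = 0.0371), the latter lost without any 1 control or deleted replicate 1 or 3 (up to 0.108). Trp63, which defines the basal layer of stratified epithelium, had a change of 0.05 (SE 0.04, adjusted p = 0.479). The mean of the 15 ran from 7.49 to 7.56 in controls and from 7.68 to 7.89 in deleted uteri. Without Sprr1a, left out after the values were seen, it ran from 7.45 to 7.51 and from 7.51 to 7.62, with the groups overlapping, and its change went from 0.26 to 0.10. The part of these markers in the changes of the stratified keratins was not tested.

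Other cell types were followed by their own markers. The share called was 50% for gland, 87.5% for endothelium, 25% for leukocyte and 12.5% for smooth muscle markers. Over all genes it was 11.1%. Of 10 endometrial gland markers 5 fell, Foxa2 itself among them, and none rose (list mean 8.79 to 9.28 in controls, 7.61 to 7.98 in deleted uteri). The largest falls were in the gland secretion genes Spink1 (log2 change -4.28) and Cxcl15 (-3.99). The other 5 were not called. Of these Prss29, Calb1 and Sox9 had a change below 0, and Lif (0.12) and Wfdc3 (0.04) had one above 0. Of 8 mesothelium markers none was called (limma; 1 higher and 0 lower at an unadjusted p under 0.05), with list means of 9.24 to 9.53 in controls and 9.12 to 9.52 in deleted uteri. Of 5 oviduct markers none was called (limma; 0 higher and 1 lower at an unadjusted p under 0.05), with means of 7.87 to 7.94 and 7.85 to 7.94. Of 8 endothelium markers 7 fell (10.62 to 10.74, then 9.61 to 10.27), and of 8 leukocyte markers 2 fell (8.79 to 9.14, then 8.55 to 9.09), the natural killer cell receptor Ncr1 and the leukocyte antigen Ptprc. Leaving out any 1 control ended the Ptprc call (up to 0.078). Of 8 smooth muscle markers 1 rose (11.65 to 11.81, then 11.69 to 12.25), the smooth muscle actin Actg2 by 0.51 (adjusted p = 0.0449), a call lost without any 1 array other than deleted replicate 4 (up to 0.12). Of 10 stroma markers none was called (limma; 0 higher and 3 lower at an unadjusted p under 0.05; 11.63 to 11.64, then 11.30 to 11.66). The part of these cells in the keratin values was not tested.

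Keratin genes lie in 2 clusters, with type I on chromosome 11 and type II on chromosome 15, except that Krt18 is a type I gene beside Krt8 at the end of the type II cluster. On chromosome 11 the keratins that changed most had measured keratin neighbours that were not called. Krt23 lay between Krt20 and Krt39, which were not called, and Krt19 between Krt15 and Krt9, neither of them called. On chromosome 15 Krt7 lay between Krt80 and Krt87, neither called, and Krt8 beside Krt18, which was not called. The start regions of Krt8 and Krt18 printed above share this neighbourhood.

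**Figure D4:**
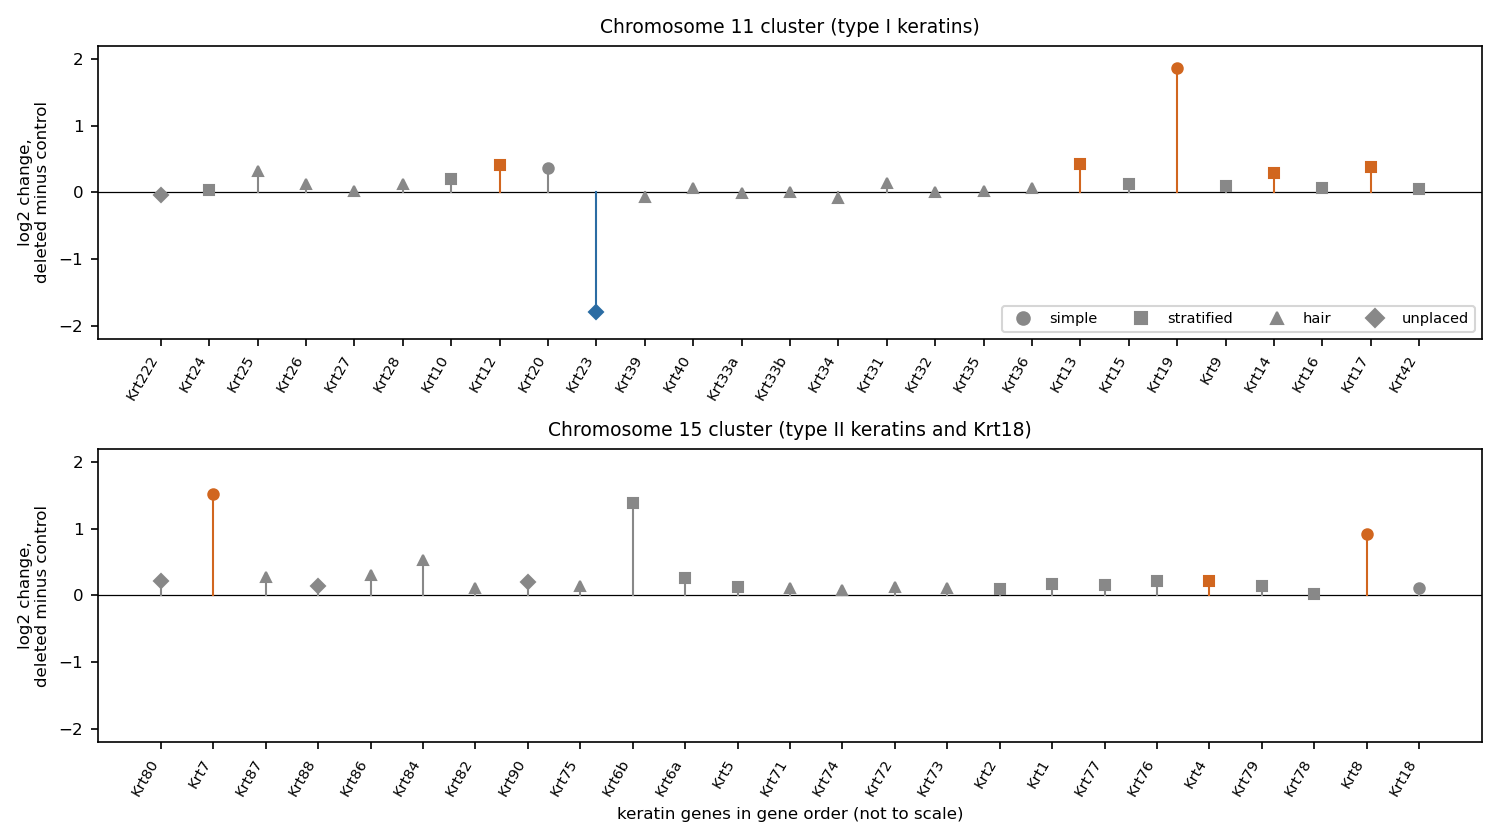
Log2 change (deleted minus control, y axis) of the keratins in their order along chromosomes 11 and 15 (x axis, rank among the keratins measured, not distance), from the RefSeq annotation of GRCm38.p6. Each line runs from 0 to the change and is not an interval. Krt23 and Krt19 on chromosome 11 and Krt7, Krt8 and the uncalled Krt6b (1.39) on chromosome 15 stand out among neighbours that lie mostly between 0 and 0.5.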

How the data were processed

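Whole-uterus RNA (150 ng) from 8 mice was hybridised to Affymetrix whole-transcript arrays, 1 per mouse. The authors deposited log2 intensities made by RMA, per the submitters' processing notes, for 35556 probe sets (2.73 to 14.33). The sources used here give neither versions nor the genome build behind the probe sets. RMA compresses changes of dim probe sets, and precision is limited by having 8 arrays.

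Probe sets with 1 gene symbol in the platform annotation (21789; 1621 had several and 12146 none) were kept, and the one with the highest mean stood for each of 19938 genes (999 genes had several; each keratin had 1). Of the 21789, 21698 were found in RefSeq by gene identifier, with 0 differing symbols. Differences were fitted with limma 3.58.1 in R 4.3.3 (lmFit, eBayes) on all genes, without covariates, and checked on simulated data. The labels call the samples biological replicates. Differences within each array, between partners or between a keratin and the epithelial marker mean, were tested by exact two-sided permutation over 70 arrangements. The smallest p that this test can give is 0.029. Promoters were searched on both strands.

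The members, classes and lists were chosen with earlier results of these data known. Named were all simple and all called keratins, 13 keratins of standing interest, the 2 highest and 2 lowest of the rest, up to 4 called genes of each list, and defining markers. Alternatives were other scalings, filters, probe set rules, weights, eBayes settings, a replicate block and leaving out each array.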

Additional observations from a re-analysis of the deposited data

Results flagged for a closer look

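In 5 of the 104 keratin groups of 4 arrays, 1 array stood far from the other three, and chance alone gives about 1 in 20 such groups. Krt10 was at 7.93 on control replicate 1 against 7.79 to 7.80 on the other controls, and Krt82 at 7.83 on the same array against 7.68 to 7.70. Krt28 was at 6.12 on control replicate 3 against 6.0 to 6.02. Among deleted arrays, Krt34 was at 7.83 on replicate 2 against 7.46 to 7.52, and Krt76 at 6.62 on replicate 1 against 6.29 to 6.33. None of the 5 genes was called changed by limma.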

How the results depend on the processing

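The 8 keratins called higher became 5 under cyclic loess, 5 without the dimmest 25% of genes (29 keratins left), 3 without the lower 50% (6 left), 5 with a replicate block and 3 to 14 with an array left out. The 1 called lower became 0 without the lower 50%, where Krt23 was not tested. The 5 stratified keratins called became 2 under cyclic loess, 2 without the dimmest 25%, 0 without the lower 50%, 3 over all probe sets, 1 with the replicate block and 1 to 8 with an array left out. The 0 hair keratins called became 1 with the replicate block, 3 with array weights and 0 to 3 with an array left out. The count of simple keratins stayed within 1.5 times its main value in every alternative run. No called change reversed its direction in any alternative run. Of the values of single genes and differences recomputed with a p, 35 lost and 8 gained a call and 352 did neither; a further 144, differences with an array left out, were recomputed with no test. Over all genes 898 were called higher and 1311 lower as deposited, 1082 and 982 after median centring, 1011 and 939 after quantile normalisation, 960 and 949 after cyclic loess, 435 and 627 with the replicate block, 1351 and 1781 with array weights, and 196 to 1374 and 348 to 1777 with an array left out. The deviations of same-numbered control and deleted arrays correlated at -0.051 to 0.057, and not every array correlated best with its own number. With 4 arrays per group this check cannot show whether same-numbered arrays shared a batch, and the main fit treated them as unpaired. Krt18, uncalled, had a change below 0 under array weights and without deleted replicate 3 or 4, as had Krt16 without deleted replicate 3. Dim keratins near the floor limit what these arrays can show.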
